A study of Mus musculus with 24 samples.

Results

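The genes described here belong to canonical Wnt/beta-catenin signalling: the effector Ctnnb1, the transcription factors Lef1, Tcf7 and Sp5, and the feedback inhibitors Axin2, Nkd1, Nkd2, Notum and Apcdd1. They were chosen by name as transcriptional targets or feedback genes of the pathway, with earlier results of these data known, and are 9 of the 25755 genes in the deposited table. Their RNA was measured by RNA-seq in dermal papilla (DP) cells, the mesenchymal cells at the base of the hair follicle, which were sorted from mouse skin by yellow fluorescent protein. Mice were taken at P20 (the first telogen, the resting phase of the follicle), P24 (early anagen, its growth phase), P28 (mid anagen) and P60 (the second telogen), with 3 control and 3 dM1/2 libraries at each age and 24 in all. The dM1/2 mice were bred to delete the histone deacetylase genes Hdac1 and Hdac2 in the DP, and the comparison with controls asks how the papilla's transcripts differ. All mice carried Cor-cre/+, a recombinase driven by Corin that acts in DP cells after birth, and the EYFP reporter at ROSA26. The dM1/2 genotype was Cor-cre/+ with Hdac1 Flox/Flox and Hdac2 Flox/Flox. Controls carried Cor-cre/+ with Hdac1 Flox/+ and Hdac2 Flox/+, with Hdac1 Flox/+ and Hdac2 +/+, with Hdac1 +/+ and Hdac2 Flox/+, with Hdac1 Flox/+ and Hdac2 Flox/Flox, or with Hdac1 Flox/Flox and Hdac2 Flox/+. A control animal can therefore lack both copies of either gene in the papilla, and the labels do not say which library had which control genotype.

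Levels are given as normalised reads, the reads counted on a gene after the authors divided them by a size factor for each library. The 12 telogen libraries held 8171944 to 13369732 reads on genes and the 12 anagen libraries 35469841 to 49331751. Xist, transcribed from the inactive X chromosome, lay between 8113 and 26333 normalised reads in every P20 and P60 library and at most 3.91 at P24 and P28. The Y-linked Ddx3y had no read at P20 and P60 and 969 to 1738 normalised reads at P24 and P28. Female telogen libraries thus stand against male anagen libraries, and stage, sex and depth cannot be told apart between them.

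In canonical signalling a Wnt ligand binds a Frizzled receptor and an LRP co-receptor, which stops a destruction complex built on Axin and APC from marking beta-catenin for degradation; beta-catenin then enters the nucleus and joins TCF and LEF factors at its target genes. Several targets feed back on the pathway: Axin2 rebuilds the destruction complex, Nkd1 and Nkd2 bind Dishevelled, Notum removes the lipid that Wnt ligands need to bind their receptors, and Apcdd1 is a membrane protein that inhibits Wnt signalling. In the papilla, beta-catenin is known to be needed for the signals that start anagen and keep the hair matrix dividing.

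Promoters of 3 members are shown: that of Sp5 because it holds letters of the kind that TCF and LEF factors bind, and those of Axin2 and Nkd2 as feedback genes whose stretches do not. RefSeq (GRCm38.p6) lists a start for 7 of the 9 members, with 12 starts in all, and none for Notum and Apcdd1 in the table used here. The 250 bases before the start are printed 5′ to 3′ on the gene's strand, at chr2:70474673-70474922 on the plus strand for Sp5, chr11:108920099-108920348 on the plus strand for Axin2, and chr13:73847632-73847881 on the minus strand for Nkd2. Capitals mark the 5 letters CTTTG, on either strand, and the 2 letters after them where each of these is A or T, which makes a 7-letter match that contains the shorter one.
Sp5: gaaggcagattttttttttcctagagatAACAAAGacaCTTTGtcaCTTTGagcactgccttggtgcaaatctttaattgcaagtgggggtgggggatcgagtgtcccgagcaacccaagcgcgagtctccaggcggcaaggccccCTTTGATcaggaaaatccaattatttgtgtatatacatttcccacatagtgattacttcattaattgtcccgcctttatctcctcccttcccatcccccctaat
Axin2: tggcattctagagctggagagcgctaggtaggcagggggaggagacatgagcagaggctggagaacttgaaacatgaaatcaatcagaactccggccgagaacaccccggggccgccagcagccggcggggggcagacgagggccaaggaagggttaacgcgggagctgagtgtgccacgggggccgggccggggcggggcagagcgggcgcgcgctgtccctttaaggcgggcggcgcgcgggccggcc
Nkd2: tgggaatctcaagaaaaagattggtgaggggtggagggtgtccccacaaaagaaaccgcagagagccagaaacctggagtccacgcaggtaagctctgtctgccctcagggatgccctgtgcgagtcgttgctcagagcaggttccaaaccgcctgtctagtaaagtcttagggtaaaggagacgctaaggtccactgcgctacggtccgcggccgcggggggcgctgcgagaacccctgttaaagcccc
The Sp5 stretch held 4 matches of CTTTG, of which 2 extended to 7 letters, on the reverse strand 222 bases before the start and on the forward strand 104 bases before it. The stretches of Axin2, Tcf7, Nkd1, Nkd2 and Ctnnb1 held no match of either length. Among the 4 Lef1 starts, all held CTTTG, and the start 45823 bases inside the annotated gene also held a 7-letter match, 147 bases before it. Over the 32851 listed promoters, 14.8% held a 7-letter match in 250 bases, 1.42% held 2 or more, and 48.6% held CTTTG. GC content was 46.0% in the Sp5 stretch, 58.4% in that of Nkd2 and 69.2% in that of Axin2, against a median of 52.4% over all listed promoters.

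Hdac1 and Hdac2 were read in every library first, because they check the labels. At P24, Hdac1 was at 675, 668 and 668 in the control libraries and 209, 188 and 116 in the dM1/2 libraries, so that the groups lay far apart. At P20 it was at 375, 511 and 505 in the control libraries and 216, 369.6 and 270.0 in the dM1/2 libraries, again without overlap. At P28 the values were 214, 529 and 105 in the control libraries and 190.2, 149 and 126 in the dM1/2 libraries: the library labelled P28 control 3 lay below all 3 dM1/2 libraries, P28 control 1 lay close above them and P28 control 2 lay far above. Controls could carry Hdac1 Flox/Flox. Whether the library labelled P28 control 3 came from such an animal is not given, and an exchange of labels was not tested. Its summed DP markers, listed below, were the highest of all 24 libraries at 489998, against 148469 to 163789 in P28 dM1/2. Members and lists at P28 are therefore given with and without the library labelled P28 control 3. The P60 values were 506, 359.9 and 376 in the control libraries and 371, 347 and 318 in the dM1/2 libraries, and the groups overlapped. On the log2 scale (dM1/2 minus control, tested with limma), Hdac1 was at -0.72 at P20 (adjusted p = 0.122), -2.01 at P24 (SE 0.22, adjusted p = 0.00167), -0.58 at P28 (adjusted p = 0.454; -1.13 and 0.0426 without the library labelled P28 control 3) and -0.25 at P60 (adjusted p = 0.986). For Hdac2 no age showed the dM1/2 libraries below the controls. Its P24 values were 925, 1048 and 1069 in the control libraries and 1157, 1223 and 1282 in the dM1/2 libraries, and its log2 differences -0.01, 0.27, 0.16 and 0.08 at P20, P24, P28 and P60 (lowest limma adjusted p = 0.117). The table counts reads over the whole gene, and whether they come from the floxed exons was not tested.

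The sorted cells were compared with markers of the papilla and of its neighbours; 5 of the DP markers (Fgf7, Fgf10, Rspo3, Vcan and Wif1) are also in the list of other Wnt targets used below. All 18 listed DP markers had more than 3 reads in 23 of 24 libraries and 17 did in P60 dM1/2 2, and Corin, Alx4 and Wif1 had reads in all 24. Their summed level was 63214, 47668 and 57469 normalised reads in P20 controls and 100937, 67553 and 79691 in P20 dM1/2. It reached 341998, 364302 and 399396 in P24 controls against 192746, 217892 and 177298 in P24 dM1/2. At P28 the sum was 326033, 178924 and 489998 in controls and 163789, 148469 and 159054 in dM1/2, with the library labelled P28 control 3 the highest of all 24. In P60 controls it was 39589.8, 50545 and 64911, and in P60 dM1/2 22042, 29287 and 50295, with P60 dM1/2 1 the lowest of all. The sum was thus higher in dM1/2 than in every control at P20 and lower than in every control at P24 and P28; it is led by a few abundant genes, and single markers moved both ways, as given with the results below. Vcan was the most abundant of them in all anagen libraries except P28 dM1/2 2, where Wif1 was, and Lepr, Trps1 or Vcan was in telogen.

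Markers of other dermal fibroblasts (7 of 7 with reads in every library, Col3a1 the most abundant in each) moved opposite to the DP sum at P20. Col3a1 alone made up most of the sum of these markers, at 2440780.0 of 2529320.0 in P20 control 1 and 232472 of 237725 in P28 control 3. Their sum was 2529320.0, 3443780.0 and 2932360.0 in P20 controls and 1836660.0, 1979390.0 and 1477320.0 in P20 dM1/2, where each dM1/2 library was below every control. The P24 sums were 1111760.0, 703572 and 421102 in controls and 588247, 330745 and 594564 in dM1/2. Among P28 libraries they spanned 1276650.0, 2547410.0 and 237725 in controls and 486494, 653139 and 777803 in dM1/2, so that the library labelled P28 control 3 held the least and P28 control 2 the most. At P60 the sums were 817874, 875227 and 694203 in controls and 1196010.0, 787257 and 995867 in dM1/2, the highest of these in P60 dM1/2 1. Dermal sheath and smooth muscle markers (5 of 5, led by Myh11, Acta2 or Myl9) summed to 2229 to 10370.5, with a median of 7868. The other lists were low: keratinocyte markers (19 of 20 in the table) summed to 206 to 708 with a median of 310.5, and skeletal muscle markers (6 of 6) to 19.1 to 129 with a median of 55.7. At P28 the keratinocyte sums did not overlap, at 310, 311 and 206 in controls and 582, 594 and 501 in dM1/2. Gata3 alone was at 382, 318 and 228 in those dM1/2 libraries. Melanocyte markers (8 of 8, led by Mitf in 23 libraries) lay between 394 and 2795 with a median of 823, endothelial markers (7 of 7, led by Kdr or Tek) between 368 and 6109 with a median of 1069.9, and immune markers (11 of 11, led by Csf1r in 23 libraries) between 172 and 1432 with a median of 556; the highest melanocyte and endothelial sums were in P60 dM1/2 1. In that library Mitf alone was at 2658 and Tek alone at 5112. Sox10 of melanocytes had at most 5 reads in any library, and Dct at most 40 and none in 9. Of the tested genes of these 6 lists, limma called no gene of 31 at P20 (6 at an unadjusted p under 0.05) and none of 30 at P60 (0). At P24 it called 1 keratinocyte marker higher and 2 lower, 1 muscle marker higher, and 1 endothelial, 1 immune and 1 dermal sheath marker lower. At P28 it called 2 keratinocyte markers higher and 1 lower, 1 muscle marker higher and 1 dermal sheath marker lower. That muscle marker, Mylpf, was at 39.7, 38.6 and 42.6 normalised reads in the P28 dM1/2 libraries. It reached the minimum mean of 10 only through them and so had to differ. At P28 without the library labelled P28 control 3, limma called 2 keratinocyte markers and 1 muscle marker, again Mylpf with the same limit, higher. The 2 keratinocyte markers were Gata3 at 4.45 and Dlx3 at 3.70 on the log2 scale. The other tested keratinocyte markers, Krt5, Krt14, Krt15, Krt10 and Tchh, were at -1.05, -1.56, -1.42, -0.35 and 0.04 and did not pass. With that library left out, limma also called 3 dermal sheath, 1 melanocyte and 1 endothelial marker lower. Among defining markers of other cells, Shh of the hair matrix and Cd3g of T cells had no read in 22 and 21 of 24 libraries and at most 2 reads in any. Others had some: Hoxc13 at most 9 reads and none in 10 libraries, Krt71 at most 49 and none in 12, Cd3d at most 10 and none in 6, Cd3e at most 6 and none in 10, and Krt5 of the epidermis 6 to 360 reads in all 24.

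**Figure D1:**
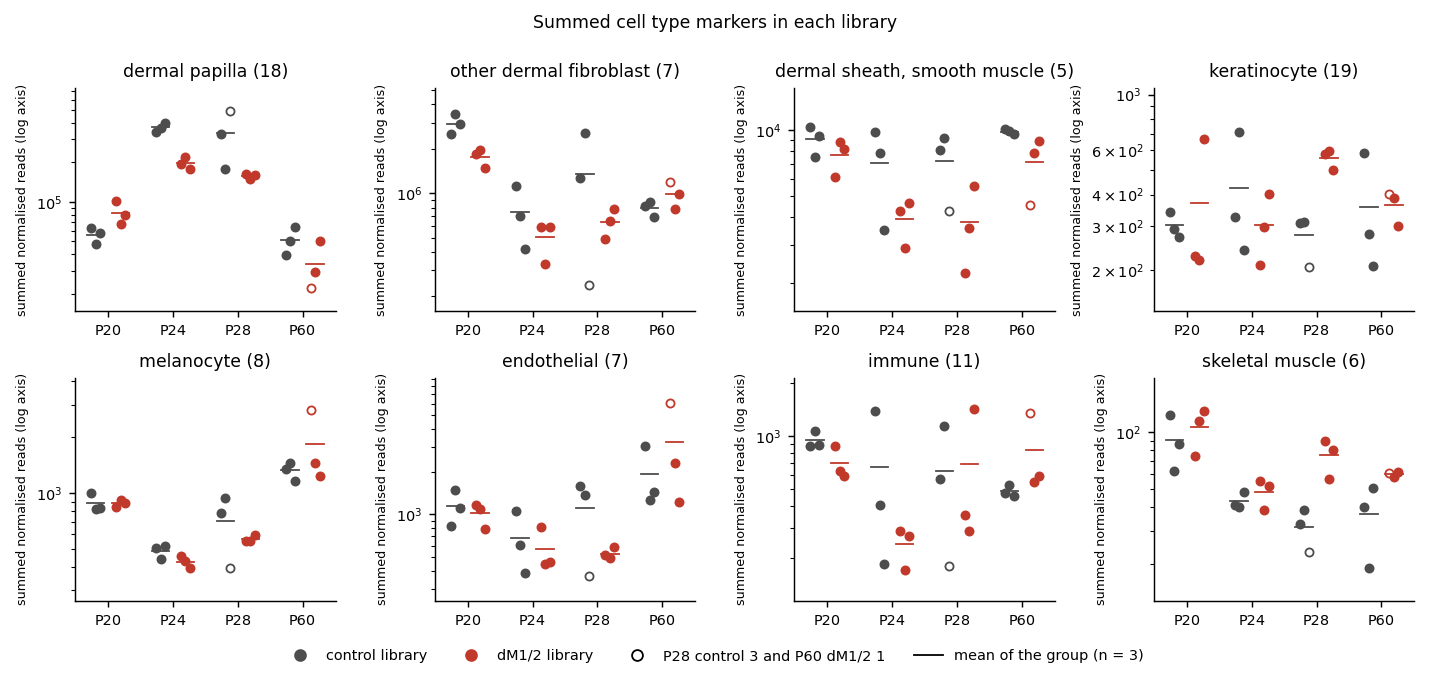
Summed normalised reads of 8 lists of cell type markers (log axis) in each library, by age; grey points are controls, red points dM1/2, open points P28 control 3 and P60 dM1/2 1, and lines the group means (n = 3). DP marker sums run from 22042 in P60 dM1/2 1 to 489998 in P28 control 3.

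Among controls, all 9 members were detected, at levels that differed by stage and by gene. Levels of different genes are compared per kilobase of exon. In P20 controls Ctnnb1 stood highest at 2131 ± 138 normalised reads per kb (mean ± SD, n = 3), followed by Apcdd1 at 1665 ± 189 and Notum at 1434 ± 518. Sp5 was the lowest at 7.46 ± 2.21. By P28 the order from the top was Ctnnb1, Apcdd1, Notum, Nkd2 and Axin2, with Axin2 at 618 ± 196 per kb, up from 164 ± 17.2 at P20. Notum was the highest member per kb in P24 controls, at 1815 ± 304 beside 1752 ± 52.7 for Ctnnb1, and in P60 controls, at 3236 ± 415. Of the inhibitors, Notum and Apcdd1 thus lay nearest to the effector at P20 and P28, while Axin2 and Nkd1 lay well below it at every age. Nkd2, which like Nkd1 binds Dishevelled, lay close below Notum and Apcdd1 in P28 controls, at 1246.8 ± 349.5 per kb. In P24 controls Nkd2 lay above Apcdd1, at 779 ± 176 against 476 ± 109 per kb.

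Which of these levels moved with the hair cycle was tested by limma's F test over the 4 ages in controls (12 libraries), where 5 of 9 members passed an adjusted p under 0.05, as did 49% of the 14066 genes tested. Apcdd1 was at 23157, 18662 and 22543 normalised reads at P20, 5656, 7715 and 5041 at P24, 16093, 18251 and 20509 at P28 and 12787, 21178 and 22426 at P60. It was low in early anagen in every control and high at the other ages (adjusted p = 0.000650). Tcf7, a transcription factor that beta-catenin uses as a DNA-binding partner, was at 1478, 1069 and 1431 at P20 and 684, 1008 and 1526 at P60 but at 324, 447 and 337 at P24 and 408, 406 and 570.0 at P28. Every telogen control lay above every anagen control for Tcf7 (adjusted p = 0.000867). Axin2, widely used as a readout of the pathway, was at 3046, 2548 and 4616 at P28 and at no more than 1537 in any control of another age (adjusted p = 0.00163). Nkd2 was at 5867, 4410.1 and 7774 at P28, 4315, 4182 and 2784 at P24, 2868, 2091 and 2736 at P20 and 1689.7, 3022 and 2402 at P60 (adjusted p = 0.00662), and its step from P24 to P28 alone did not pass (log2 difference 0.67, limma adjusted p = 0.253). Sp5, a zinc-finger transcription factor, was at 44.1, 26.2 and 53.0 at P60, 16.1, 10.8 and 20.1 at P20, 2.71, 7.53 and 0.794 at P24 and 0, 4.48 and 0 at P28 (adjusted p = 0.00351). It reached the minimum mean of 10 only through the telogen controls, so that its call, 1 of the 5, had to show a difference. Lef1, Nkd1, Notum and Ctnnb1 did not pass, with limma adjusted p of 0.128, 0.366, 0.0703 and 0.0838. Without P28 control 2 the count was 7 of 9, with Lef1 and Notum added, and without the library labelled P28 control 3 it was 6, with Notum added. In the same test 15 of 18 DP markers and 3 of 7 fibroblast markers passed; their part in the members' values was not tested.

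Over all 8 groups, each member had its own order. Axin2 ran from 3403 ± 1079.7 (mean ± SD, n = 3) in P28 controls down to 902 ± 94.8 in P20 controls, and only the step from P28 dM1/2 to P60 controls was wider than the SDs of both neighbours together. Lef1 was highest in P24 dM1/2 at 4019.5 ± 352 and lowest in P60 dM1/2 at 780.2 ± 591, the last step being the only one beyond the spread. Tcf7 ran from 1765 ± 88.8 in P20 dM1/2 to 369 ± 67.9 in P24 controls, with clear steps below P20 dM1/2 and between P24 dM1/2 and P28 controls, so that control anagen groups formed the bottom of its order. Nkd1 stood apart only in P28 dM1/2, at 2662 ± 317; the other 7 groups, down to 949.6 ± 211 in P60 controls, overlapped their neighbours. For Nkd2, from 6017 ± 1687 in P28 controls to 1973 ± 1172 in P60 dM1/2, and for Notum, from 7794 ± 998 in P60 controls to 2020.1 ± 1896 in P60 dM1/2, no neighbouring groups differed beyond their spread. Apcdd1 was lowest in P24 dM1/2 at 4251 ± 484, apart from P24 controls at 6137 ± 1400.3, and highest in P20 controls. Ctnnb1 ran from 13656 ± 1408 in P20 dM1/2 to 8531 ± 723 in P28 controls, the narrowest span of the 9 in proportion to its level, with the only clear step between P20 controls at 11063 ± 716 and P24 dM1/2 at 9346 ± 649. Sp5 ran from 41.1 ± 13.7 in P60 controls to 1.42 ± 0.931 in P24 dM1/2, with the only clear step between the telogen and the anagen groups, from P20 controls to P28 dM1/2.

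**Figure D2:**
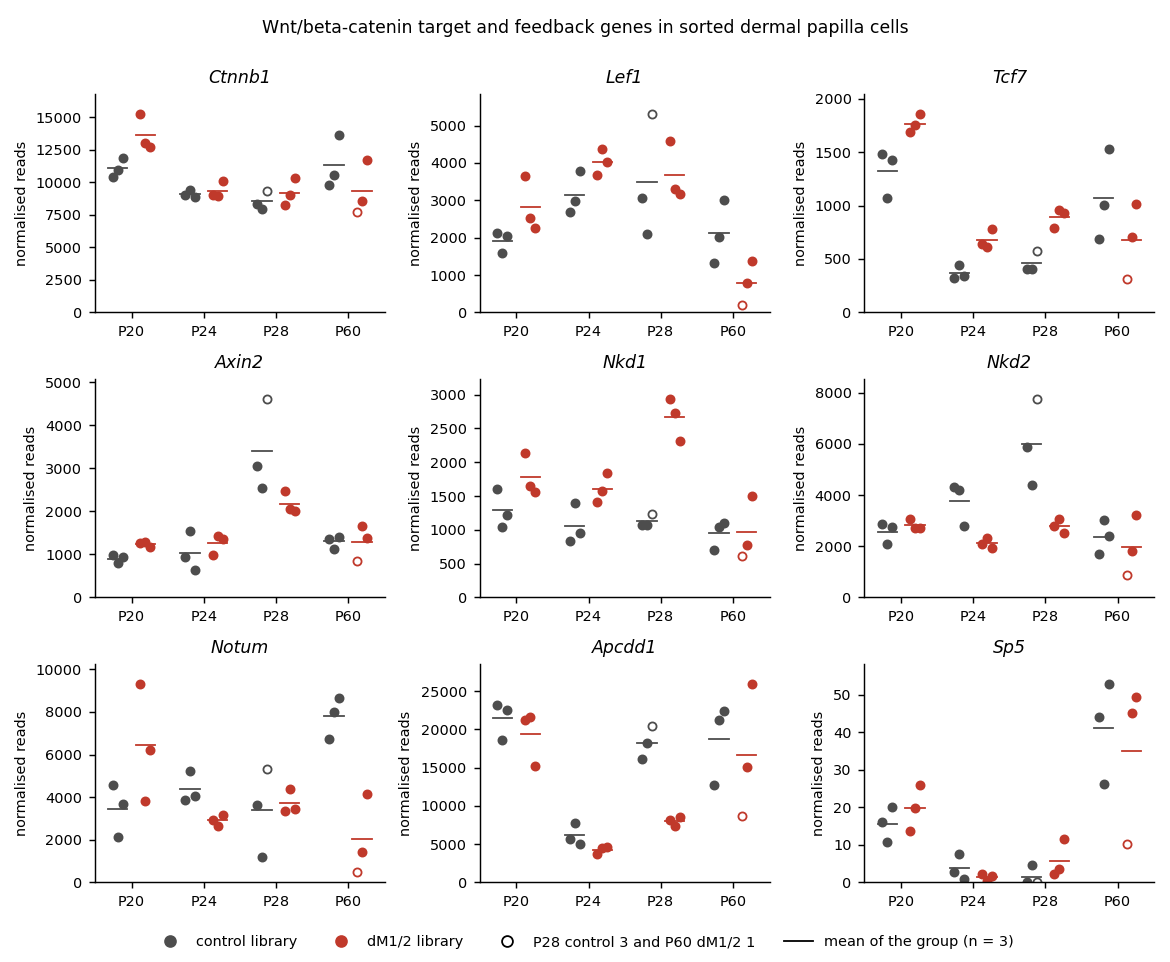
Normalised reads (linear axes from 0) of the 9 members in each of the 24 libraries, by age; grey points are controls, red points dM1/2, open points P28 control 3 and P60 dM1/2 1, and lines the group means (n = 3). At P28 the 3 dM1/2 libraries lie above every control for Tcf7 and Nkd1 and below every control for Axin2, Nkd2 and Apcdd1.

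At P20, before anagen, none of the members passed the test. By limma, 0 of 9 members had an adjusted p under 0.05, against 0.433% of the 13845 genes tested; 6 of 9 had an unadjusted p under 0.05, as did 2735 of all genes tested, and edgeR and DESeq2 called 0 as well. Ctnnb1, which encodes beta-catenin (ENSMUSG00000006932, chr9:120929216-120960507, plus strand), was at 10405, 10959 and 11825 in the control libraries and 15269, 13026 and 12673 in the dM1/2 libraries. Lef1 (ENSMUSG00000027985, chr3:131110471-131224356, plus strand), a partner of beta-catenin on DNA, was at 2121, 1577 and 2036 in the control libraries and 3647, 2521 and 2266 in the dM1/2 libraries. Its fellow factor Tcf7 (ENSMUSG00000000782, chr11:52252371-52283014, minus strand) was at 1478, 1069 and 1431 in the control libraries and 1685, 1751 and 1861 in the dM1/2 libraries. In each of these the 3 dM1/2 libraries lay above all controls. Axin2 (ENSMUSG00000000142, chr11:108920349-108950783, plus strand) was at 978, 795 and 932 in the control libraries and 1253, 1292 and 1167 in the dM1/2 libraries, also without overlap. Groups that did not overlap were thus found for 4 of 9 members, all higher in dM1/2, and for 25.4% of all genes tested. The log2 difference (dM1/2 minus control) was 0.46 for Axin2 (SE 0.12, limma adjusted p = 0.0995), 0.54 for Lef1 (SE 0.19, adjusted p = 0.167), 0.43 for Tcf7 (SE 0.14, adjusted p = 0.151) and 0.30 for Ctnnb1 (SE 0.13, adjusted p = 0.229).

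Notum, the secreted Wnt deacylase, had the largest P20 estimate of the members. Its values were 4583, 2116 and 3659.7 in the control libraries and 9332, 3839.8 and 6192 in the dM1/2 libraries, and P20 dM1/2 2 lay below P20 control 1. The log2 difference was 0.88 with a 95% interval of 0.12 to 1.64 (limma adjusted p = 0.195). Nkd1 was at 1604, 1039 and 1216 in the control libraries and 2142, 1653 and 1559 in the dM1/2 libraries, with P20 dM1/2 3 below P20 control 1 (log2 difference 0.48, limma adjusted p = 0.190). For Nkd2, Sp5 and Apcdd1 the groups overlapped, with log2 differences of 0.15, 0.32 and -0.16. The median over the members was 0.43 against -0.01 over all genes tested, and 8 of 9 estimates were above 0. DP markers shifted with them, with 16 of 18 estimates above 0 a median of 0.53 and 1 called higher by limma, while the 7 fibroblast markers had a median of -0.75 and none called (5 at an unadjusted p under 0.05); their part in the members' values was not tested, and in sorted bulk cells fewer cells of a type and less RNA per cell cannot be told apart. Without P20 control 1, where 11.1% of all genes passed against 0.433% with it, limma called 3 members, Axin2 (adjusted p = 0.0319), Tcf7 (0.0496) and Nkd1 (0.0348), whose adjusted p over all alternatives ran from 0.0319 to 0.439, 0.0496 to 0.531 and 0.0348 to 0.429.

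In early anagen the members went different ways: Tcf7 rose in dM1/2 while Nkd2 and Notum fell. At P24, 3 of 8 members tested passed limma's adjusted p of 0.05, against 26.6% of the 14028 genes tested; Sp5, at 0.794 to 7.53 normalised reads in controls and 0.381 to 2.18 in dM1/2, was under the minimum mean of 10 and was not tested. Tcf7 was at 324, 447 and 337 in the control libraries and 643, 607 and 784 in the dM1/2 libraries. All dM1/2 libraries were above all controls, and the log2 difference was 0.88 (SE 0.17, limma adjusted p = 0.00944), higher in 3 of 3. Nkd2 (ENSMUSG00000021567, chr13:73818534-73847631, minus strand), an inhibitor that binds Dishevelled, was at 4315, 4182 and 2784 in the control libraries and 2097, 2321 and 1917 in the dM1/2 libraries. Each dM1/2 library was below each control, with a log2 difference of -0.81 (SE 0.19, limma adjusted p = 0.0179). Notum (ENSMUSG00000042988, chr11:120653788-120661175, minus strand) was at 3872, 5209.9 and 4029.6 in the control libraries and 2919.7, 2628 and 3178 in the dM1/2 libraries. It too was lower in 3 of 3 dM1/2 libraries, by a log2 difference of -0.58 (SE 0.15, limma adjusted p = 0.0285).

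The paralogue of Nkd2 went the other way without passing. Nkd1 (ENSMUSG00000031661, chr8:88521354-88594884, plus strand) was at 829, 1393 and 948 in the control libraries and 1408, 1581 and 1836 in the dM1/2 libraries, a log2 difference of 0.63 (SE 0.21, limma adjusted p = 0.0573). Apcdd1 (ENSMUSG00000071847), the membrane inhibitor, was at 5656, 7715 and 5041 in the control libraries and 3693, 4502 and 4557 in the dM1/2 libraries, a log2 difference of -0.51 (SE 0.19, limma adjusted p = 0.0799). In both genes the groups did not overlap, which with Tcf7, Nkd2 and Notum makes 5 of 8, against 44.8% of all genes tested. Lef1 was at 2689, 2976 and 3793 in the control libraries and 3667, 4372 and 4019.6 in the dM1/2 libraries (log2 difference 0.36), and Axin2 was at 947, 1537 and 631 in the control libraries and 979, 1423 and 1360.5 in the dM1/2 libraries (log2 difference 0.35). These and Ctnnb1, at 8891 to 9405 in controls and 8947 to 10096 in dM1/2, overlapped between groups, so that the effector's own transcript and the usual readout of the pathway gave no separation of the groups at P24. The median over the 8 members was 0.19, against -0.01 over all genes. Of the 18 DP markers 9 fell and 1 rose (median -0.64), and none of the 7 fibroblast markers passed (median -0.48; 1 at an unadjusted p under 0.05); the part of cell composition in the members' values was not tested.

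Of the P24 calls, only that of Tcf7 held in each alternative and with each library left out, with adjusted p from 8.62e-05 to 0.0427. Nkd2 lost its call without P24 control 1 (adjusted p = 0.0503), P24 control 2 (0.0686), P24 dM1/2 1 (0.0581) or P24 dM1/2 3 (0.0658), and in a fit over all 24 libraries (0.0698), and over all alternatives its adjusted p ran from 0.000362 to 0.0698. Notum lost its call without P24 control 2 (0.0972), P24 dM1/2 1 (0.0808) or P24 dM1/2 2 (0.0942), and in the fit over all 24 libraries (0.504), with a range of 0.00193 to 0.504. DESeq2 called 5 members, adding Nkd1 and Apcdd1, and 33.5% of all genes tested. Limma added Nkd1 without P24 control 2 (0.0214; 0.0214 to 0.164 over all alternatives), and Lef1 (0.0333; 0.0333 to 0.639) and Apcdd1 (0.0371; 0.0279 to 0.233) without P24 control 3. The directions did not change: Nkd2 stayed between -1.01 and -0.70, and Notum between -0.66 and -0.45.

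In mid anagen the transcription factor Tcf7 and the feedback gene Nkd1 rose in dM1/2, and the feedback genes Nkd2 and Apcdd1 fell. At P28, 4 of 8 members tested passed limma's adjusted p of 0.05, against 35.5% of the 14126 genes tested, so the share is not far from that of all genes; Sp5, at 0 to 4.48 in controls and 2.13 to 11.6 in dM1/2, was under the minimum. Nkd1 was at 1064, 1066 and 1240.5 in the control libraries and 2942, 2727 and 2318 in the dM1/2 libraries. The lowest dM1/2 library held far more than the highest control, and the log2 difference was 1.24 (SE 0.14, limma adjusted p = 0.00103), or 2.36-fold. Nkd2 was at 5867, 4410.1 and 7774 in the control libraries and 2788, 3075 and 2499 in the dM1/2 libraries. Here every control exceeded every dM1/2 library, and the log2 difference was -1.08 (SE 0.22, limma adjusted p = 0.00991). The paralogues, which share the name naked cuticle and the binding to Dishevelled, thus moved in opposite directions in the same libraries. Apcdd1 was at 16093, 18251 and 20509 in the control libraries and 8199, 7424 and 8487 in the dM1/2 libraries. Its groups lay well apart, with a log2 difference of -1.18 (SE 0.17, limma adjusted p = 0.00290). Tcf7 was at 408, 406 and 570.0 in the control libraries and 792, 955 and 926 in the dM1/2 libraries, again higher in 3 of 3 dM1/2 libraries, by 0.96 (SE 0.17, limma adjusted p = 0.00598).

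Axin2 was at 3046, 2548 and 4616 in the control libraries and 2463, 2059 and 1996 in the dM1/2 libraries. All dM1/2 libraries were below all controls, but the controls were spread widely, with the library labelled P28 control 3 the highest, and the log2 difference of -0.61 (SE 0.23) had a limma adjusted p of 0.0813. With the 4 genes above, the groups of 5 of 8 members did not overlap, against 51.3% of all genes tested. Lef1 was at 3051, 2086 and 5321 in the control libraries and 4576, 3315 and 3180.3 in the dM1/2 libraries, its controls reaching from below to above the dM1/2 range (log2 difference 0.17, SE 0.34). Notum was at 3633, 1168 and 5315 in the control libraries and 3337, 4379 and 3427 in the dM1/2 libraries (log2 difference 0.38, SE 0.52). P28 control 2, which had the highest fibroblast marker sum of the P28 libraries (2451570.0 of it Col3a1), was by far the lowest of them for Notum. Ctnnb1 ranged over 7947 to 9339 in controls and 8217 to 10315 in dM1/2 (log2 difference 0.10, 95% interval -0.28 to 0.49), which leaves room for a change of the beta-catenin transcript within that interval. The median over the 8 members was 0.14, against 0.0038 over all genes, and the median of the absolute differences 0.78 against 0.48. Without the library labelled P28 control 3, the median over the members was 0.35, against 0.0012 over all genes.

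Tcf7, Nkd1, Nkd2 and Apcdd1 passed in each of the 8 alternatives and with each of the 6 libraries left out. Without the library labelled P28 control 3, whose Hdac1 lay below that of the dM1/2 libraries, the log2 differences were 1.12 for Tcf7 (limma adjusted p = 0.000904; 5.21e-05 to 0.0327 over all alternatives), 1.31 for Nkd1 (0.000515; 1.8e-11 to 0.00949), -0.87 for Nkd2 (0.00609; 3.16e-05 to 0.0450) and -1.09 for Apcdd1 (0.00229; 1.8e-12 to 0.0215). Axin2 was at -0.36 without that library and at -0.79 without P28 control 2, where limma called it (adjusted p = 0.0267; 0.0267 to 0.208 over all alternatives, with a call by DESeq2). Lef1, Notum and Ctnnb1 were at 0.53, 0.84 and 0.17 without the library labelled P28 control 3 (limma adjusted p = 0.0950, 0.141 and 0.454; 0.0950 to 0.994, 0.141 to 0.851 and 0.454 to 0.958 over all alternatives). Lef1 and Notum changed sign without P28 control 2, to -0.15 and -0.25. Of the 18 DP markers 4 rose and 6 fell at P28 (median -0.89), and 1 of 7 fibroblast markers rose (median -0.42). With the library labelled P28 control 3 left out, 5 DP markers rose and 6 fell (median -0.48), and 1 fibroblast marker rose and 4 fell (median -1.58); whether composition plays a part in the members' values was not tested.

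**Figure D3:**
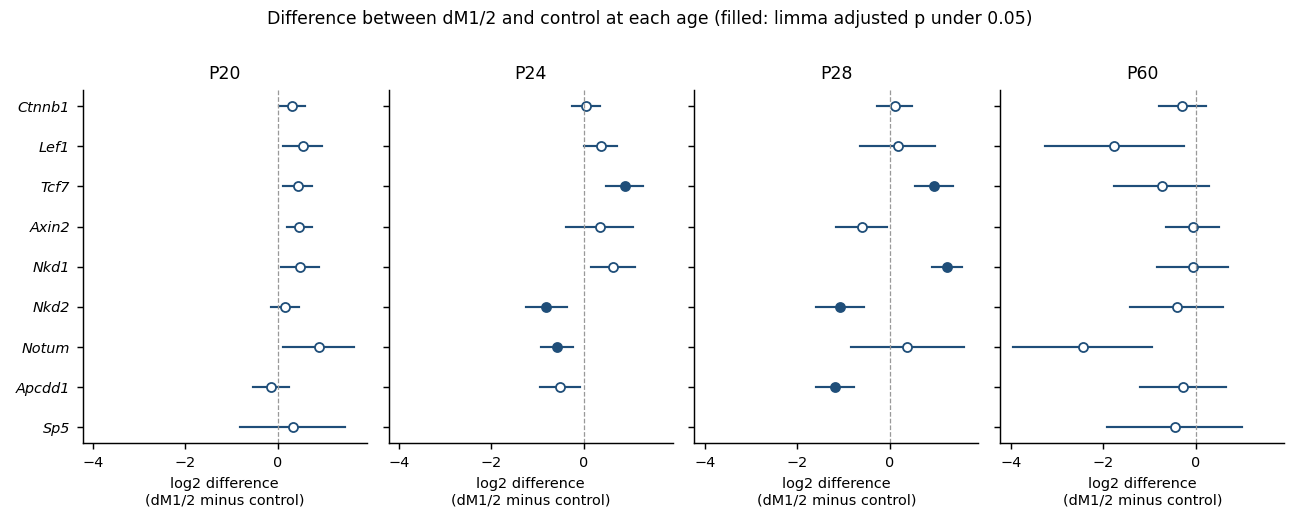
Log2 difference (dM1/2 minus control) of each member with its 95% interval (lines) at P20, P24, P28 and P60, n = 3 libraries per group; filled points have a limma adjusted p under 0.05, and Sp5 was not tested at P24 and P28. Tcf7 is at 0.88 and 0.96 at P24 and P28, Nkd1 at 1.24 and Apcdd1 at -1.18 at P28, and no P20 or P60 point is filled.

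In the second telogen no member passed. At P60, limma called 0 of 9 members, where 0% of the 14042 genes tested had an adjusted p under 0.05; 2 of 9 members had an unadjusted p under 0.05, as did 525 of all genes tested, and edgeR and DESeq2 called 0 members. Notum was at 6708, 7998 and 8674 in the control libraries and 479.7, 1443 and 4137 in the dM1/2 libraries. Every dM1/2 library was below every control, and P60 dM1/2 1 was the lowest, but limma's adjusted p for the log2 difference of -2.45 (95% interval -3.94 to -0.95) was 0.986. It was the only member of 9 whose groups did not overlap, against 8.87% of all genes tested. Lef1 was at 1309.8, 2021 and 3013 in the control libraries and 192, 774 and 1374 in the dM1/2 libraries, with P60 dM1/2 3 above P60 control 1 (log2 difference -1.76, 95% interval -3.27 to -0.25, limma adjusted p = 0.986). Tcf7 was at 684, 1008 and 1526 in the control libraries and 316, 709 and 1014 in the dM1/2 libraries, a log2 difference of -0.74 (limma adjusted p = 0.986). Notum, Lef1 and Tcf7 were all at their lowest in P60 dM1/2 1. The remaining 6 members had log2 differences between -0.45 and -0.06, and Axin2 was at 1364, 1129.7 and 1404 in the control libraries and 846, 1649 and 1369.7 in the dM1/2 libraries.

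All 9 estimates at P60 were below 0, with a median of -0.41 against 0.02 over all genes. P60 dM1/2 1 was the lowest of the 6 libraries for each of the 9 members. It was also the lowest in summed DP markers and the highest in summed fibroblast, melanocyte, endothelial and immune markers at that age, and 16 of 18 DP marker estimates were below 0 (median -0.78). Single genes led 3 of these sums in P60 dM1/2 1. Mitf made up 2658 of the melanocyte sum of 2795, and Tek 5112 of the endothelial sum of 6109. Col3a1 made up 998780 of the fibroblast sum of 1196010.0. Limma called 0 of the 18 DP markers (7 at an unadjusted p under 0.05) and 0 of the 7 fibroblast markers (0) at P60; their part in the members' values was not tested. Without that library the log2 differences were -1.66 for Notum (limma adjusted p = 0.308; 0.106 to 1 over all alternatives), -0.95 for Lef1 and -0.26 for Tcf7. Axin2, Nkd1, Nkd2, Sp5 and Apcdd1 then turned positive, at 0.22, 0.21, 0.07, 0.25 and 0.12.

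The step from early to mid anagen was then followed within each genotype, which asks how the genes move as the follicle grows. In controls 1 of 8 members tested passed limma's adjusted p of 0.05 (1.46% of the 13966 genes tested). Apcdd1 rose from 5656, 7715 and 5041 at P24 to 16093, 18251 and 20509 at P28, every P28 library above every P24 library, by 1.59 on the log2 scale (SE 0.21, limma adjusted p = 0.0329). Axin2 went from 947, 1537 and 631 to 3046, 2548 and 4616, also without overlap, with a log2 difference of 1.76 (SE 0.36) and a limma adjusted p of 0.0743. The call of Apcdd1 was lost without any 1 of P24 control 1 (0.126), P24 control 2 (0.0619), P24 control 3 (0.108), P28 control 1 (0.101), P28 control 2 (0.0652) or P28 control 3 (0.0600), with log2 differences from 1.46 to 1.77. Over all alternatives its adjusted p ran from 3.81e-10 to 0.126. DESeq2 called both genes, as it did 10.7% of all genes tested.

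In dM1/2, 3 of 8 members passed (2.67% of the 14032 genes tested), all higher at P28. Apcdd1 rose from 3693, 4502 and 4557 to 8199, 7424 and 8487, by 0.92 (SE 0.13, limma adjusted p = 0.0151). Nkd1 rose from 1408, 1581 and 1836 to 2942, 2727 and 2318, by 0.73 (SE 0.14, limma adjusted p = 0.0362). Axin2 rose from 979, 1423 and 1360.5 to 2463, 2059 and 1996, by 0.80 (SE 0.16, limma adjusted p = 0.0414). In each, all P28 libraries were above all P24 libraries. Markers moved over this step too: 5 of 18 DP markers fell (median -0.47) and 1 of 7 fibroblast markers rose (median 0.50), and in controls 1 DP marker fell (median -0.71); their part was not tested. Nkd1 in controls was at 829, 1393 and 948 at P24 and 1064, 1066 and 1240.5 at P28, a log2 difference of 0.12 (95% interval -0.38 to 0.62). With 1 library left out (adjusted p in parentheses), limma's call of Apcdd1 was lost without P24 dM1/2 1 (0.0546), P28 dM1/2 2 (0.0606) or P28 dM1/2 3 (0.0567). That of Nkd1 was lost without P24 dM1/2 1 (0.125), P24 dM1/2 2 (0.0779), P28 dM1/2 1 (0.0695), P28 dM1/2 2 (0.165) or P28 dM1/2 3 (0.0605), and that of Axin2 without P24 dM1/2 1 (0.103), P28 dM1/2 1 (0.0799), P28 dM1/2 2 (0.153) or P28 dM1/2 3 (0.0977). Over all alternatives the adjusted p of Apcdd1 ran from 3.85e-09 to 0.0606, that of Nkd1 from 0.000196 to 0.165 and that of Axin2 from 0.000988 to 0.153.

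Whether the effect of the genotype itself differed between P24 and P28 was tested over 12 libraries. Limma called 0 of 8 members (0.707% of the 14139 genes tested), with 3 at an unadjusted p under 0.05, and edgeR and DESeq2 called 0. Those 3 were Axin2, with a difference between the log2 differences of -0.96 (SE 0.43, adjusted p = 0.407), Nkd1 at 0.61 (SE 0.26, adjusted p = 0.378) and Apcdd1 at -0.67 (SE 0.25, adjusted p = 0.286). Without the library labelled P28 control 3 it again called 0 members, with Axin2 at -0.71, Nkd1 at 0.68 and Apcdd1 at -0.58. A change of the genotype's effect between these ages was therefore not shown for any member.

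The effect of the genotype was also compared between anagen and telogen. Taken over all 24 libraries, the mean effect at P24 and P28 minus that at P20 and P60 passed limma's adjusted p of 0.05 for 2 of 9 members, against 30.2% of the 14243 genes tested. For Tcf7 the difference was 1.08 (SE 0.31, limma adjusted p = 0.0124): the dM1/2 libraries were above every control at P20, P24 and P28 and overlapped the controls at P60. For Nkd1 it was 0.73 (SE 0.26, limma adjusted p = 0.0422). Nkd2 had a difference of -0.81 (adjusted p = 0.0603) and Apcdd1 of -0.63 (adjusted p = 0.105) in the opposite direction. Tcf7 passed in each alternative and with each of the 24 libraries left out. Without the library labelled P28 control 3 and P60 dM1/2 1 together, a setting chosen after the data were seen, limma's call of Nkd1 was lost (0.63, adjusted p = 0.0648; 0.00338 to 0.0783 over all alternatives) and it called 3 members: Tcf7 at 0.92 (adjusted p = 0.00571; 0.00212 to 0.0258 over all alternatives), Nkd2 at -0.95 (0.00539; 0.00362 to 0.111) and Apcdd1 at -0.79 (0.0186; 0.0125 to 0.192). Of the 18 DP markers 12 passed the same test with all libraries, 2 higher and 10 lower (median -0.82); their part in the members' values was not tested. Stage, sex and depth differ together between these libraries.

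The call of Nkd1 between anagen and telogen rested on many libraries. It was lost without P20 control 1 (0.0750), P20 control 3 (0.0556), P20 dM1/2 2 (0.0676), P20 dM1/2 3 (0.0718), P24 control 1 (0.0783), P24 control 3 (0.0646), P24 dM1/2 2 (0.0556), P24 dM1/2 3 (0.0768), P28 control 1 (0.0655), P28 control 2 (0.0585), P28 dM1/2 1 (0.0682), P28 dM1/2 2 (0.0652), P60 control 2 (0.0707), P60 control 3 (0.0766), P60 dM1/2 1 (0.0744) or P60 dM1/2 2 (0.0711) (adjusted p in parentheses), which is 16 of the 24, and ran from 0.00338 to 0.0783 over all alternatives. Conversely, limma called Nkd2 without P24 control 3 (0.0393), P28 control 2 (0.0368), P60 control 2 (0.0428) or P60 dM1/2 1 (0.00362), and Apcdd1 without P60 dM1/2 1 (0.0125), the library with the lowest level of both at P60.

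**Figure D4:**
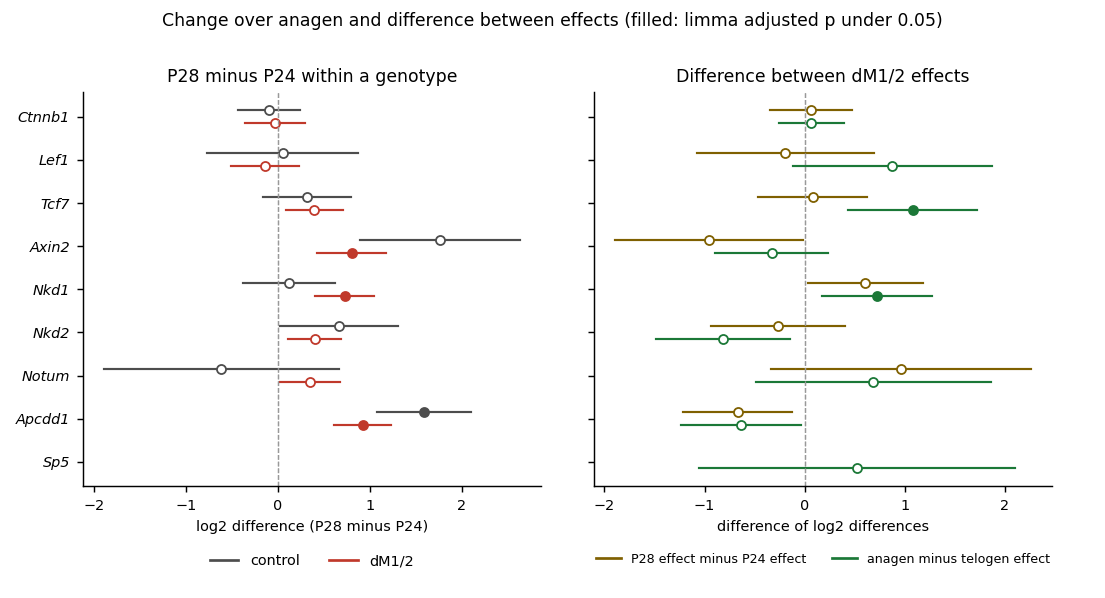
Left, log2 difference between P28 and P24 of each member within controls (grey) and dM1/2 (red); right, difference between the P28 and P24 effects of the genotype (brown) and between the anagen and telogen effects (green). Lines are 95% intervals and filled points have a limma adjusted p under 0.05; Tcf7 at 1.08 and Nkd1 at 0.73 are the filled points on the right.

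The rest of the pathway was read from 4 lists of genes written by role, as log2 differences (dM1/2 minus control). Of 15 Wnt receptors and co-receptors, limma called 0 higher and 2 lower at P24 (6 at an unadjusted p under 0.05), and 2 higher and 3 lower at P28 (median -0.33). Fzd1, a receptor for Wnt ligands, was at 11477, 8544 and 17944 in the control libraries and 2867, 2906 and 3009 in the dM1/2 libraries at P28. It fell by 2.04 on the log2 scale (SE 0.27, limma adjusted p = 0.00181), and the co-receptor Lrp6 was at -0.76 and the receptor kinase-like Ryk at -0.53. Fzd9 at 1.70 and Fzd10 at 1.32 rose. These calls, 2 and 5 of 15, stand against 26.6% and 35.5% of all genes tested at P24 and P28. Without the library labelled P28 control 3 (40.9% of all genes called at P28), limma called 2 higher and 5 lower (median -0.28), with Fzd1 at -1.76, Lrp6 at -0.79, Ryk at -0.49, Fzd9 at 1.69 and Fzd10 at 1.41.

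Among 24 genes of the destruction complex and cytoplasmic transduction, 3 rose and 1 fell at P24, and 4 rose and 4 fell at P28 (median -0.05), against 26.6% and 35.5% of all genes called. Dact3, a Dishevelled-binding antagonist, was at 894, 767 and 1050.1 in the control libraries and 2080.1, 2709 and 2398 in the dM1/2 libraries at P28, without overlap. Its log2 difference was 1.41 (SE 0.16, limma adjusted p = 0.00117), beside 0.77 for Amer1, an APC-binding scaffold, and 0.57 for Ctnnbip1, which blocks the binding of beta-catenin to TCF factors. Apc at -0.75, its paralogue Apc2 at -1.05 and the tankyrase Tnks2 at -0.53, which marks Axin for degradation, fell. Axin2, a scaffold partner of Apc in this machinery, did not pass at P28, as given above. With the library labelled P28 control 3 left out (40.9% of all genes called), 3 rose and 4 fell (median -0.02), with Dact3 at 1.52, Amer1 at 0.80, Ctnnbip1 at 0.71, Apc at -0.66, Apc2 at -0.77 and Tnks2 at -0.53. At P20 Amer1 alone of this list passed (log2 difference 0.78, limma adjusted p = 0.0454).

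Of 20 other TCF factors and nuclear partners of beta-catenin, 1 rose and 5 fell at P24, and 3 rose and 8 fell at P28 (median -0.30), against 26.6% and 35.5% of all genes called. The Groucho-type co-repressors split: Tle3 at 1.07 and Tle4 at 1.03 rose, as did the co-repressor Ctbp2 at 0.79, while Tle2 at -1.28 and Tle6 at -1.15 fell. Pygo1, a co-activator that binds beta-catenin through its partner, was at 1004, 727 and 1074 in the control libraries and 499, 437 and 501 in the dM1/2 libraries at P28. Its groups did not overlap, and it fell by 0.95 (SE 0.17, limma adjusted p = 0.00666). In this list 4 rose and 8 fell without the library labelled P28 control 3 (40.9% of all genes called; median -0.29), with Tle3 at 1.07, Tle4 at 1.10, Ctbp2 at 0.87, Tle2 at -1.17, Tle6 at -1.07 and Pygo1 at -0.84. The rise of Tcf7 among the members thus came with changes in both directions among transcripts of genes whose proteins act with it on DNA. At P60 limma called none of these 3 lists' 59 genes, with 1, 0 and 1 at an unadjusted p under 0.05 in receptors, cytoplasm and nucleus. At P20 it called 0 receptors (2 at an unadjusted p under 0.05) and 0 genes of the nuclear list (5).

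A further list held 26 genes described as Wnt targets in the papilla or in other tissues, 24 of them tested at P24 and P28. At P20 and P60 limma called 0 of 23 (10 and 8 at an unadjusted p under 0.05). At P24 2 rose and 6 fell, and at P28 5 rose and 6 fell (median -0.25), against 26.6% and 35.5% of all genes called. Without the library labelled P28 control 3 (40.9% of all genes called), 5 rose and 9 fell (median -0.43). Ccnd1, the cell-cycle gene of cyclin D1, was at 374, 644 and 251 in the control libraries and 5733, 5435 and 4479 in the dM1/2 libraries at P28. It rose by 3.72 (SE 0.33, limma adjusted p = 0.000525), the largest value of the list, after 3.32 at P24. Tbx3 rose by 1.15. Dkk1, a secreted inhibitor of LRP co-receptors, was at 1.74, 5.76 and 1.52 in the control libraries and 26.4, 54.0 and 30.5 in the dM1/2 libraries. Limma called it higher (3.33, SE 0.56, adjusted p = 0.00480), but it reached the minimum mean only through the dM1/2 libraries and so had to differ. In the same list the growth factors Fgf7 and Fgf10 and the R-spondins Rspo1 to Rspo4, which the papilla secretes to the matrix, were followed as 6 genes. They were picked because the study names them as Wnt targets of the papilla. The study already reports their reduction in mid anagen from these same libraries, so their fall at P28 is no separate support. All 6 fell at P28, 3 (Fgf7, Fgf10 and Rspo2) fell at P24, and limma called 0 at P20 and 0 at P60 (2 and 3 at an unadjusted p under 0.05). Rspo2, which strengthens Wnt signalling by protecting Frizzled receptors, was at 7485, 3467 and 10106 in the control libraries and 1415, 834 and 858 in the dM1/2 libraries at P28 and had a log2 difference of -2.67 (SE 0.41, limma adjusted p = 0.00339), beside -2.26 for Rspo4 and -2.18 for Fgf7. All 6 passed as well without the library labelled P28 control 3, with Rspo2 at -2.34, Rspo4 at -1.87 and Fgf7 at -1.84, beside Ccnd1 at 3.40, Dkk1 at 3.07 and Tbx3 at 1.06. These 6 secreted genes thus fell at P28 in libraries where Tcf7 and Nkd1 rose and Ctnnb1 differed by 0.10 (limma adjusted p = 0.659). DP markers moved in the same libraries (6 of 18 lower and 4 higher, median -0.89), but 3 of the 6 lower markers are Fgf7, Fgf10 and Rspo3 themselves, and the part of composition in the fall of these 6 genes was not tested.

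**Figure D5:**
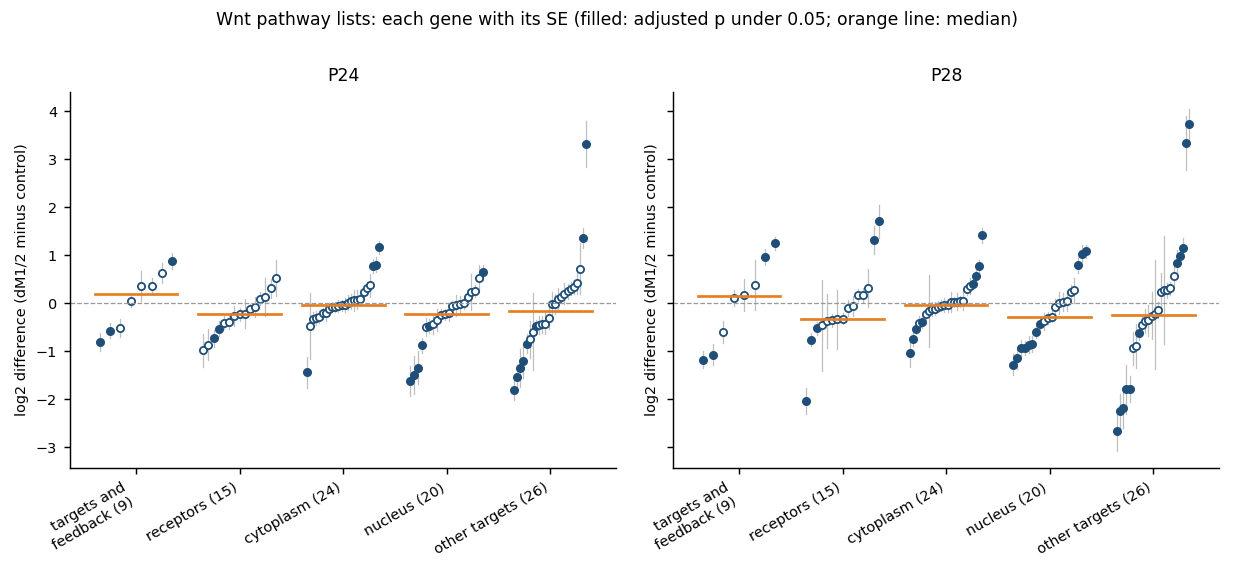
Log2 difference (dM1/2 minus control) of each tested gene of 5 Wnt lists at P24 and P28, sorted within a list, with 1 SE (lines); numbers in parentheses are the genes listed, filled points have a limma adjusted p under 0.05, and orange lines are medians. At P28 the medians are 0.14 for the members, -0.33 for receptors, -0.05 for cytoplasm, -0.30 for nucleus and -0.25 for other targets.

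Genes whose pattern over the 8 group means was most like that of 3 members were found by Pearson's r of log2 levels among 14243 genes, as a description over groups that share libraries, stage and depth. For Axin2 they were Crym (0.961), Ppm1h (0.954) and BC106179 (0.943). Crym encodes a thyroid hormone-binding protein of the cytosol. For Lef1 they were Mrps31 (0.980), Sult4a1 (0.969) and B4galt6 (0.958), and for Notum Gpr62 (0.924), Sgf29 (0.913) and Il17rb (0.867).

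Some members share exon bases with other annotated genes. The study's methods name a directional library kit, but the strand setting of the counting is not given in the sources used here. Notum shares 29.4% of its exon bases with the antisense gene Notumos and 8.72% with the antisense gene Myadml2os. Lef1 shares 13.8% with Gm43352, Ctnnb1 14.6% with Ulk4 on the other strand, and Axin2 3.80% with Gm11670. Of the 4 members called at P28, Tcf7, Nkd1 and Nkd2 share no exon base with the genes that overlap them, and no overlapping gene was found for Apcdd1. Members lie on chromosomes 2, 3, 8, 9, 11, 13 and 18, with Axin2, Notum and Tcf7 on chromosome 11.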

How the data were processed

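RNA of sorted DP cells was sequenced as 50-base single-end reads on a HiSeq 2500 after ribosomal depletion. Per the study's methods and the submitters' processing notes, the authors used Trimmomatic for trimming, TopHat2 for alignment to mm10, HTSeq for counts per Ensembl gene (GRCm38.p4) and DESeq2 for size factors, by which counts were divided; the strand setting is not given in the sources used here. The deposited values are such a normalised signal per gene, and whole reads were recovered from them (100% of values whole within 0.1 of a read). The columns baseMean, log2FoldChange, lfcSE, stat, pvalue and padj hold the authors' own comparison and were not used.

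Each comparison was tested with limma 3.58.1 (trend, two-sided) on log2(value + 1), for genes with a mean of at least 10 normalised reads over its libraries, with Benjamini-Hochberg adjustment over all genes tested; fold changes on this scale understate those of low genes. At each age 6 libraries entered; an exact permutation of 3 against 3 could not go below 0.1. Alternatives were a pseudocount of 10, other filters, a replicate block, edgeR 4.0.16 and DESeq2 1.42.0 on recovered reads, a model of the 24 libraries together, and leaving out 1 library at a time; except where stated, these choices were made before the data were examined. Tests were checked on simulated data in which every gene had the same spread beyond counting noise. The check does not cover wider spreads, such as an SD of 61.9% of the mean for Notum and 47.6% for Lef1 in P28 controls. R 4.3.3, Python 3.11.15, pandas 2.3.3 and matplotlib 3.10.9 were used. Members and lists were chosen with earlier results of these data known. Named genes were the members, Hdac1 and Hdac2, up to 3 rises and 3 falls per list at P28, the Fgf and Rspo genes, and the 3 genes most like Axin2, Lef1 and Notum. Gene positions are from GENCODE on GRCm38, with 25431 of 25755 gene identifiers matched.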

Additional observations from a re-analysis of the deposited data

Results flagged for a closer look

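For Tcf7 the dM1/2 effect differed between anagen and telogen by 1.08 on the log2 scale (limma adjusted p = 0.0124), the effects being 0.43, 0.88, 0.96 and -0.74 at P20, P24, P28 and P60. For Nkd1 it differed by 0.73 (limma adjusted p = 0.0422; 0.00338 to 0.0783 over all alternatives), the effects being 0.48, 0.63, 1.24 and -0.06; this call was lost without P20 control 1 (0.0750), P20 control 3 (0.0556), P20 dM1/2 2 (0.0676), P20 dM1/2 3 (0.0718), P24 control 1 (0.0783), P24 control 3 (0.0646), P24 dM1/2 2 (0.0556), P24 dM1/2 3 (0.0768), P28 control 1 (0.0655), P28 control 2 (0.0585), P28 dM1/2 1 (0.0682), P28 dM1/2 2 (0.0652), P60 control 2 (0.0707), P60 control 3 (0.0766), P60 dM1/2 1 (0.0744) or P60 dM1/2 2 (0.0711) (adjusted p in parentheses), and without P28 control 3 and P60 dM1/2 1 together (0.0648, a setting chosen after the data were seen) or with no filter (0.0582). Both are listed because the difference between stages itself passed the test, as it did for 30.2% of all genes tested; stage, sex and depth cannot be told apart here.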

How the results depend on the processing

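At the 4 ages, 263 of 272 member values kept direction and side of the threshold under the alternatives, 3 lost their call, 4 gained one and 2 changed sign; with a library left out, 178 of 204 kept both, 7 lost a call, 7 gained one and 12 changed sign. DESeq2 called 5 members at P24, 2 for P24 to P28 in controls and 4 for anagen against telogen. The shares of all genes it called there were 33.5%, 10.7% and 34%. A fit over 24 libraries called 1 member at P24 (25% of all genes), and no filter called 1 for anagen against telogen (20.3%). With a library left out, members called ran 0 to 3 at P20, 1 to 5 at P24, 4 to 5 at P28, 0 at P60, 0 for P24 to P28 in controls, 0 to 3 in dM1/2, 1 to 3 for anagen against telogen and 5 to 7 over the ages. Signs changed for Nkd1 at P60 with edgeR and DESeq2 size factors (0.021) and DESeq2 (0.0020). Left-out ranges that cross 0 were, at P60, -0.44 to 0.21 for Nkd1, -0.26 to 0.22 for Axin2, -0.86 to 0.065 for Nkd2, -0.84 to 0.25 for Sp5 and -0.67 to 0.12 for Apcdd1; -0.25 to 0.0089 for Apcdd1 at P20; -0.019 to 0.068 for Ctnnb1 at P24; -0.15 to 0.53 for Lef1 and -0.25 to 0.84 for Notum at P28. The cause was not tested.

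Labels share replicate numbers, but same-numbered libraries correlated at 0.231, 0.0822 and 0.116 at P20, where each correlated best with its own number, at 0.344, 0.0238 and 0.172 at P60, and with mixed signs at P24 and P28, so the numbers were not taken to pair animals. With the number as a replicate block, members called numbered 1 (Notum) at P20, 0 for P24 to P28 in controls and 2 for dM1/2, and Notum was not called at P24.

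All genes called went from 60 to 663 by DESeq2, 439 with the block and 23 in the fit over 24 libraries at P20; from 0 to 26, 6 and 19 at P60, and 1 with a pseudocount of 10; at P24 from 3735 to 2366 with the block; for P24 to P28 from 204 to 1494 by DESeq2 and 27 with the block in controls and from 375 to 1127 by DESeq2 in dM1/2; for the P24 and P28 effects from 100 to 595 by DESeq2, 151 with a pseudocount of 10 and 49 with the block. Left-out counts ran 0 to 1530 at P20, 2057 to 4012 at P24, 3043 to 5788 at P28, 0 to 2 at P60, 0 to 67 and 57 to 446 for P24 to P28 in controls and dM1/2, and 8 to 167 for the P24 and P28 effects. Sp5 had 0 to 29 reads in anagen libraries, 4 to 14 at P20 and 4 to 23 at P60, so its differences rest on few reads.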
